A study of Mus musculus with 24 samples.

Results

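The 35 genes described here encode the enzymes and carriers of the urea cycle and of amino acid breakdown in the liver. They were chosen by gene symbol from textbook pathways, with earlier results of these data known. Counts of members set against all genes therefore describe this list and are no independent test of it. Array probes were matched to them by accession. Where a gene had several such probes, the brightest usable probe stood for it, as described under processing. Of the 35, 31 had such a probe among 17047 genes named on the arrays, and 29 could be measured. Cps1, Slc25a15, Haao and Amt had no matched probe and were not analysed here. Hgd, and Tdo2 in the probe that stood for it, had too few usable spots to be tested. Their tests are given only with spots that the scanner software had marked as uneven or outlying. The other 29 all lay well above background in the liver channel on all 24 arrays. Etnppl and Upp2 are members by the list, although their substrates, phosphoethanolamine and uridine, are not amino acids.

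Livers of male C57BL/6N mice were compared on 24 Agilent 2-colour arrays in 6 groups, 1 array per liver sample. By the labels, 4 livers came from mice pair-fed for 8 weeks and 3 from mice pair-fed for 10 days. Ethanol was fed for 8 weeks without a binge (5 livers), for 8 weeks with 1 binge (5 livers), for 8 weeks with multiple binges (4 livers), and for 10 days with 1 binge (3 livers). A binge was 5 g of ethanol per kg, and multiple binges came 2 times per week. Pair-fed mice receive control diet in the amount that ethanol-fed mice eat, and the labels name no binge without ethanol feeding. The groups are called here 8-week pair-fed, 10-day pair-fed, 8-week ethanol, 10-day binge, single-binge and multiple-binge. The sources used here state neither the age of the mice, nor the hours from a binge to sampling, nor whether replicates were different mice. The p-values therefore speak for the scatter among these samples, which may be technical.

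The liver is the main site at which amino acids are stripped of nitrogen and their carbon is sent to glucose, ketone bodies or the citric acid cycle. Ammonia set free in this way enters the urea cycle, which runs from carbamoyl phosphate through citrulline, argininosuccinate and arginine to urea. Cells near the portal vein carry most of the urea cycle and of glutaminase, while a thin layer of cells around the central vein captures what ammonia is left by making glutamine. The genes of these pathways are known to follow feeding, glucagon and glucocorticoids.

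Each value is the log2 ratio of Cy5, the liver, over Cy3, a common reference RNA, so 0 means an equal signal and a difference of 1 means a 2-fold change. Where fewer values than arrays are given for a group, the other spots had been marked by the scanner software and were left out. Such marks took 1.34% to 7.64% of all spots of an array but 2.70% to 56.8% of the members' spots, with 27.0% to 56.8% in the 8-week pair-fed livers and 5.41% to 21.6% in the single-binge livers. Values with the marked spots kept are therefore given beside the others. The median signal of an array lay between 95.5 and 247 in Cy5 and between 161.5 and 505 in Cy3, and the number of arrays limits the precision. The arrays fell into 3 scans. The first held the 8-week groups except the multiple-binge one, the second both 10-day groups, and the third the multiple-binge group alone. Of 10 hepatocyte markers 8 were measured, all of them well above background on every array.

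A single binge on top of 8 weeks of ethanol went with changes in many of the members that could be tested. Against 8-week ethanol alone, 21 of the 27 members tested passed the threshold of an adjusted p under 0.05, 15 of them lower and 6 higher. Over all genes 16.4% passed, 8.39% lower and 8.01% higher. With median centring of each array in place of loess, 12 of the 27 passed, 7 lower and 5 higher. The median difference was -0.47 over the members tested and 0.012 over all genes. Those that fell included Hal and Uroc1 of histidine breakdown, Hpd and Fah of tyrosine breakdown, Prodh, Shmt1, the glutaminase Gls2, both tested subunits of the branched-chain complex, and Otc of the urea cycle. The 6 that rose were Sdsl, Got1, Tat, Aass, Sds and Arg1. With the marked spots kept, 26 of 31 passed, 19 lower and 7 higher, against 17.4% of all genes, 8.83% lower and 8.52% higher.

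Against 8-week pair-fed livers, 12 of 22 members tested passed, 11 lower and 1 higher, against 16.2% of all genes, 8.7% lower and 7.53% higher. The median was -0.40 over the members and 0.024 over all genes. The 11 were Etnppl, Shmt1, Bckdha, Kynu, Hal, Fah, Prodh, Hpd, Uroc1, Dbt and Otc, and the 1 that rose was Sdsl. Keeping the marked spots, 21 of 31 passed, 17 lower and 4 higher, against 17.7% of all genes, 9.63% lower and 8.1% higher. Both comparisons use the same single-binge livers, so their values are given side by side and neither adds independent support to the other. In bulk liver RNA, fewer cells of a type and less RNA per cell cannot be told apart. Hepatocyte markers had a median difference of -0.059 against 8-week ethanol, with 2 of 8 higher and 1 lower, where 16.4% of all genes passed. Their mean log2 ratio lay between 0.15 and 0.39 in single-binge livers and between 0.11 and 0.37 in 8-week ethanol livers.

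**Figure D1:**
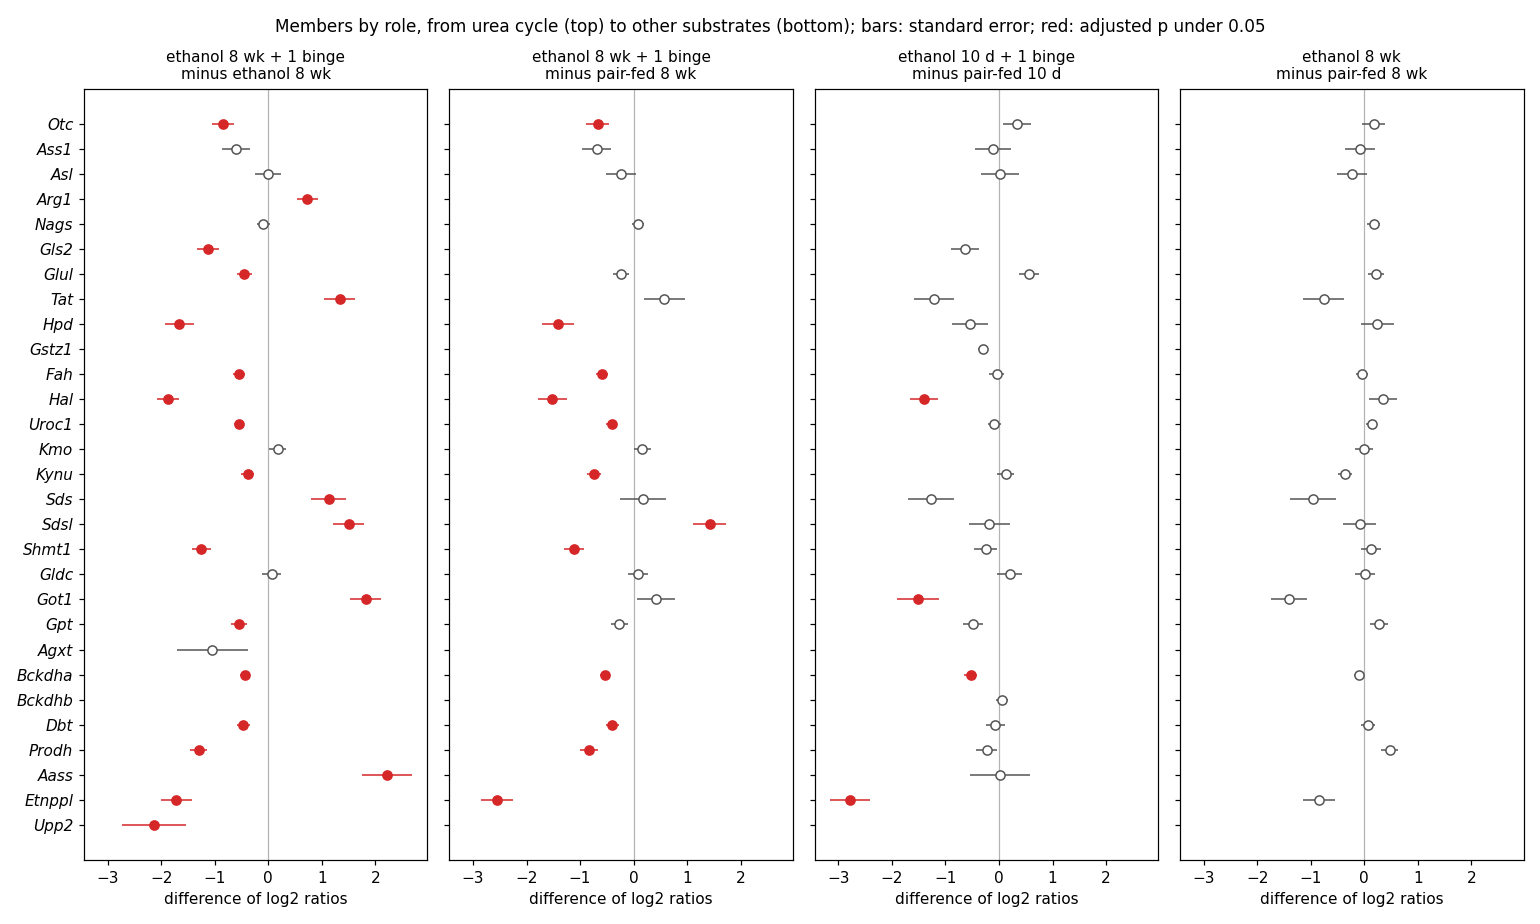
Difference of log2 ratios for each measured member (rows, ordered by role) in 4 comparisons (panels), with bars of 1 standard error from limma and red points for an adjusted p under 0.05. The first 2 panels hold 21 and 12 red points, most of them left of 0, the third holds 4 and the last none; a member without a point was not tested in that comparison.

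Promoter windows from RefSeq (GRCm38.p6), the 250 bases before a transcript start, were given for 26 of the 35 members, 31 windows in all. They were searched on both strands for TGACG, the short site of CREB, which glucagon signalling uses, TGTTCT, the short site of the glucocorticoid receptor, TTGCNNCAA of C/EBP, and the HNF4-type CAAAGTCCA and CAAAGGTCA. TGACG was found in windows of 3 members (Gstz1, Shmt1 and Aass) and in 17.8% of all 32851 windows. TGTTCT was found for 3 members (Haao, Agxt and Bckdhb) and in 16.1% of all windows, TTGCNNCAA for 1 member (Bckdha) and in 1.74%, and the HNF4-type letters for 0 members and in 0.384% and 0.426%. The windows of Hal, Hpd, Prodh, Tat, Got1 and Etnppl held none of these letters. The 3 windows below belong to members that fell (Shmt1 and Bckdha) and to one that rose (Aass) with the single binge, so the same short site stood before a gene of each direction. All 3 lie on the minus strand and are printed 5′ to 3′ along the gene, with the match in capitals: chr11:60811266-60811515 before Shmt1, chr7:25658762-25659011 before Bckdha, where the match is to the other strand of TTGCNNCAA, and chr6:23132987-23133236 before Aass. The Shmt1 match is likewise to the other strand of TGACG. A match describes the letters and shows no binding.
Shmt1: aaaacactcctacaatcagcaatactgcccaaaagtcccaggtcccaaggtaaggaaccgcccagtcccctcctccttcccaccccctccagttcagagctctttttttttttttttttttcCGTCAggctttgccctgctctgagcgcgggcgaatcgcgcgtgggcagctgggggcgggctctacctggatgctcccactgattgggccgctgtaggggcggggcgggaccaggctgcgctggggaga
Bckdha: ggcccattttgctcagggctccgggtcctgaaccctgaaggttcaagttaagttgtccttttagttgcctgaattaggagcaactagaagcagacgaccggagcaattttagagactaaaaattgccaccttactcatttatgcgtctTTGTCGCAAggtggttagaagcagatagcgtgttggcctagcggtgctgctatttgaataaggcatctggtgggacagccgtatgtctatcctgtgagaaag
Aass: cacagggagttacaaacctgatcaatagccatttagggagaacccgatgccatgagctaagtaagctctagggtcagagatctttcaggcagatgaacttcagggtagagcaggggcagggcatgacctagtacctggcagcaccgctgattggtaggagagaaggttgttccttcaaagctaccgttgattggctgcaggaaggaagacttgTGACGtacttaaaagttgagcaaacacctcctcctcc

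The urea cycle enzymes did not move as 1 group in the single-binge livers. Otc, which joins carbamoyl phosphate to ornithine, fell, Arg1, which releases urea from arginine, rose against 8-week ethanol, and Ass1, Asl and Nags did not pass. Otc lay at 0.52, 0.46, 0.54 and 0.47 in the 8-week pair-fed livers and at 0.25, 1.03, 0.47, 0.74 and 0.87 in the 8-week ethanol livers. In the single-binge livers it lay at 0.60, -0.96, -0.45, -0.16 and 0.080. All but replicate 1 of these livers were below every pair-fed and ethanol liver, and replicate 1 lay above every pair-fed one. The difference was -0.85 (SE 0.20, adjusted p = 0.00452) against 8-week ethanol and -0.67 (SE 0.21, adjusted p = 0.0312) against 8-week pair-fed livers. A second Otc probe gave -1.17 against 8-week ethanol. The call against pair-fed livers was lost without 8-week pair-fed replicate 1, 2, 3 or 4 or single-binge replicate 2 or 3 (adjusted p between 0.056 and 0.0824), and with slide as a block (adjusted p = 0.0722).

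Ass1, which makes argininosuccinate, lay at 0.29, 0.38, -0.29 and 0.79 in pair-fed, at -0.082, 0.59, -0.078, 0.17 and 0.44 in 8-week ethanol and at 0.40, -1.26, -1.09, -0.071 and 0.042 in single-binge livers. Replicates 2 and 3 of the single-binge group lay below every other liver of these groups, and the other 3 within their range. The difference from 8-week ethanol was -0.61 (SE 0.26, adjusted p = 0.125). Asl, which splits argininosuccinate into arginine and fumarate, lay at 0.29, 0.46 and -0.16, at -0.46, 0.24, -0.28, 0.041 and 0.29 and at 0.72, -0.84, -0.59, 0.57 and -0.059 in the same order of groups. The single-binge livers spanned both others, with a difference of -0.0049 (SE 0.24, adjusted p = 0.994) from 8-week ethanol. Nags makes the activator of the first urea cycle enzyme. It lay at -0.16, -0.28, -0.25 and -0.075 in pair-fed, at -0.079, -0.14, 0.23 and -0.086 in 8-week ethanol and at 0.21, -0.36, -0.29, -0.23 and 0.13 in single-binge livers, all within a narrow band that overlapped, and differed by -0.091 (SE 0.12, adjusted p = 0.708) from 8-week ethanol.

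Arg1 was measured in 1 of 4 pair-fed livers, at 0.29, and in 3 of 5 of the 8-week ethanol livers, at -0.46, -0.055 and -0.33. All 5 single-binge livers gave a value, at 1.1, 0.081, 0.22, 0.53 and 0.30, above every 8-week ethanol liver. The difference was 0.73 (SE 0.20, adjusted p = 0.0216). It was lost without 8-week ethanol replicate 1 or 3 (adjusted p between 0.0693 and 0.0878). With the marked spots kept, the pair-fed livers lay at -0.083, 0.29, -0.35 and -0.23, and the difference from them was 0.55 (SE 0.18, adjusted p = 0.0341).

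**Figure D2:**
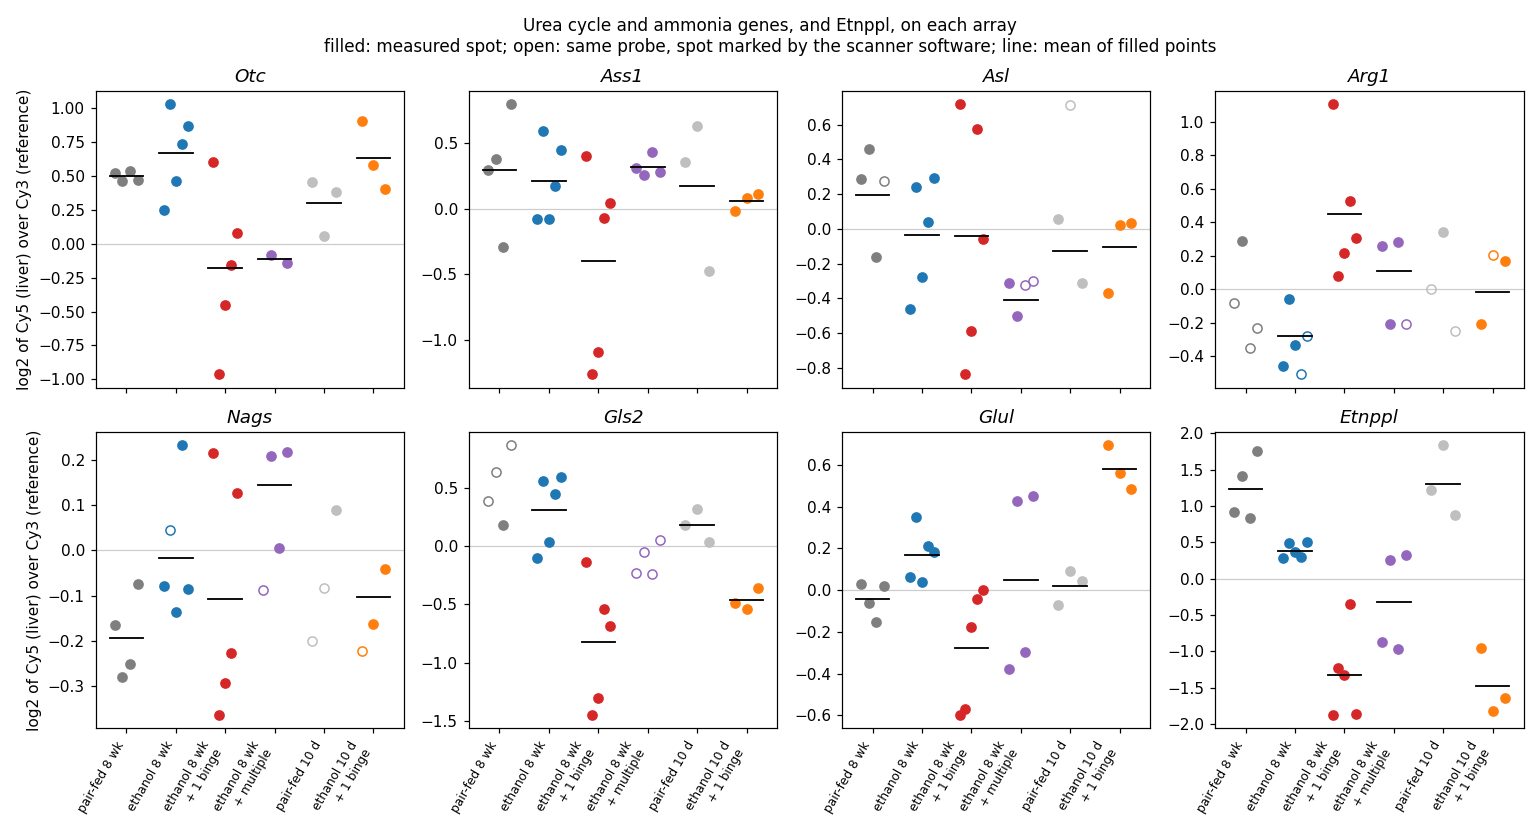
Log2 ratio of Cy5 over Cy3 (vertical axis) of 7 urea cycle and ammonia genes and Etnppl on each array of the 6 groups (horizontal axis). Filled points are measured spots, open points spots of the same probe that the scanner software marked, and lines the means of the filled points. Otc, Gls2 and Etnppl lay lower in most single-binge livers, and Arg1 lay higher than in 8-week ethanol livers. The 10-day binge livers did not overlap with 10-day pair-fed livers in Gls2, Glul and Etnppl, of which Etnppl alone was called.

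Both enzymes that exchange ammonia and glutamine fell with the single binge. Gls2, the liver glutaminase that frees ammonia for the urea cycle, lay at -0.10, 0.56, 0.035, 0.45 and 0.60 in 8-week ethanol and at -0.14, -1.45, -1.30, -0.54 and -0.69 in single-binge livers. The single-binge livers were all lower, with a difference of -1.13 (SE 0.20, adjusted p = 0.000781). Only 1 pair-fed liver could be measured, at 0.18. With the marked spots kept, the 8-week pair-fed livers lay at 0.38, 0.64, 0.19 and 0.86, and the difference from them was -1.34 (SE 0.20, adjusted p = 4.74e-05). Glul, the glutamine synthetase of the cells around the central vein, lay at 0.028, -0.061, -0.15 and 0.019 in pair-fed, at 0.062, 0.35, 0.039, 0.21 and 0.18 in 8-week ethanol and at -0.60, -0.57, -0.18, -0.043 and 0.0024 in single-binge livers. Every single-binge liver was below every 8-week ethanol liver, with a difference of -0.45 (SE 0.14, adjusted p = 0.033), while the pair-fed livers overlapped with the single-binge ones, with a difference of -0.24 (SE 0.15, adjusted p = 0.342). The Glul call was lost without 8-week ethanol replicate 2, 4 or 5 or single-binge replicate 1 or 2 (adjusted p between 0.0583 and 0.099), and with slide as a block (adjusted p = 0.0666).

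In tyrosine breakdown the first enzyme and the later ones went opposite ways. Tat, the aminotransferase that opens the pathway, lay at -1.52, -0.63, -1.63, -1.16 and -0.21 in 8-week ethanol and at 1.29, -0.30, 0.55, -0.26 and 0.24 in single-binge livers. Ethanol replicate 5 lay above 2 of the single-binge livers, the others below all of them, and Tat rose by 1.34 (SE 0.29, adjusted p = 0.00285). In the 2 pair-fed livers with a value it stood at 0.14 and -0.68, and the single-binge livers were not called different from them, at 0.58 (SE 0.38, adjusted p = 0.366). Hpd, the dioxygenase that follows, lay at 0.17, 0.12 and 0.64 in pair-fed and at 0.75, 0.21, 0.59 and 0.67 in 8-week ethanol livers. In single-binge livers Hpd lay at -0.12, -2.05, -1.95, -0.67 and -0.73, all below every pair-fed and every ethanol liver. It fell, with differences of -1.66 (SE 0.28, adjusted p = 0.000225) against 8-week ethanol and -1.41 (SE 0.30, adjusted p = 0.00219) against pair-fed livers, and the second call missed the threshold when only these 2 groups were fitted (adjusted p = 0.051).

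Fah, which makes fumarate and acetoacetate in the last step, lay at 0.35, 0.36, 0.23 and 0.29 in pair-fed, at 0.10, 0.47, 0.14, 0.28 and 0.33 in 8-week ethanol and at 0.19, -0.62, -0.46, -0.28 and -0.24 in single-binge livers. It was lower in 4 of the 5 single-binge livers than in any other liver of these groups, while replicate 1 lay above 2 of the ethanol livers. Fah fell, with differences of -0.55 (SE 0.11, adjusted p = 0.000837) against 8-week ethanol and -0.59 (SE 0.11, adjusted p = 0.00071) against pair-fed livers. Hgd and Gstz1, the enzymes between Hpd and Fah, could be compared in these groups only with the marked spots kept. Against 8-week ethanol Hgd then differed by -0.44 (SE 0.14, adjusted p = 0.0312) and Gstz1 by -0.64 (SE 0.066, adjusted p = 6.28e-07), both lower.

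With the single binge, RNA of both members of histidine breakdown fell. Hal, the ammonia-lyase that starts it, lay at 0.19 and 0.13 in the 2 pair-fed livers with a value and at 0.20, 0.89, 0.36, 0.49 and 0.62 in 8-week ethanol livers. The 5 single-binge livers lay at -0.94, -1.90, -1.90, -0.74 and -1.32. All were lower than every other liver of the 8-week groups without a binge, and this held on each of the 5 slides that carried both ethanol groups. The difference was -1.87 (SE 0.20, adjusted p = 3.00e-06) against 8-week ethanol and -1.52 (SE 0.27, adjusted p = 0.000463) against pair-fed livers. Uroc1, the urocanase of the next step, lay at 0.14, 0.056, 0.060 and 0.38 in pair-fed and at 0.24, 0.56, 0.18, 0.25 and 0.26 in 8-week ethanol livers. It stood at -0.49, -0.35, -0.13, 0.0082 and -0.27 in single-binge livers, again below both groups. Uroc1 fell, with differences of -0.55 (SE 0.10, adjusted p = 0.000329) against 8-week ethanol and -0.41 (SE 0.10, adjusted p = 0.0075) against pair-fed livers.

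**Figure D3:**
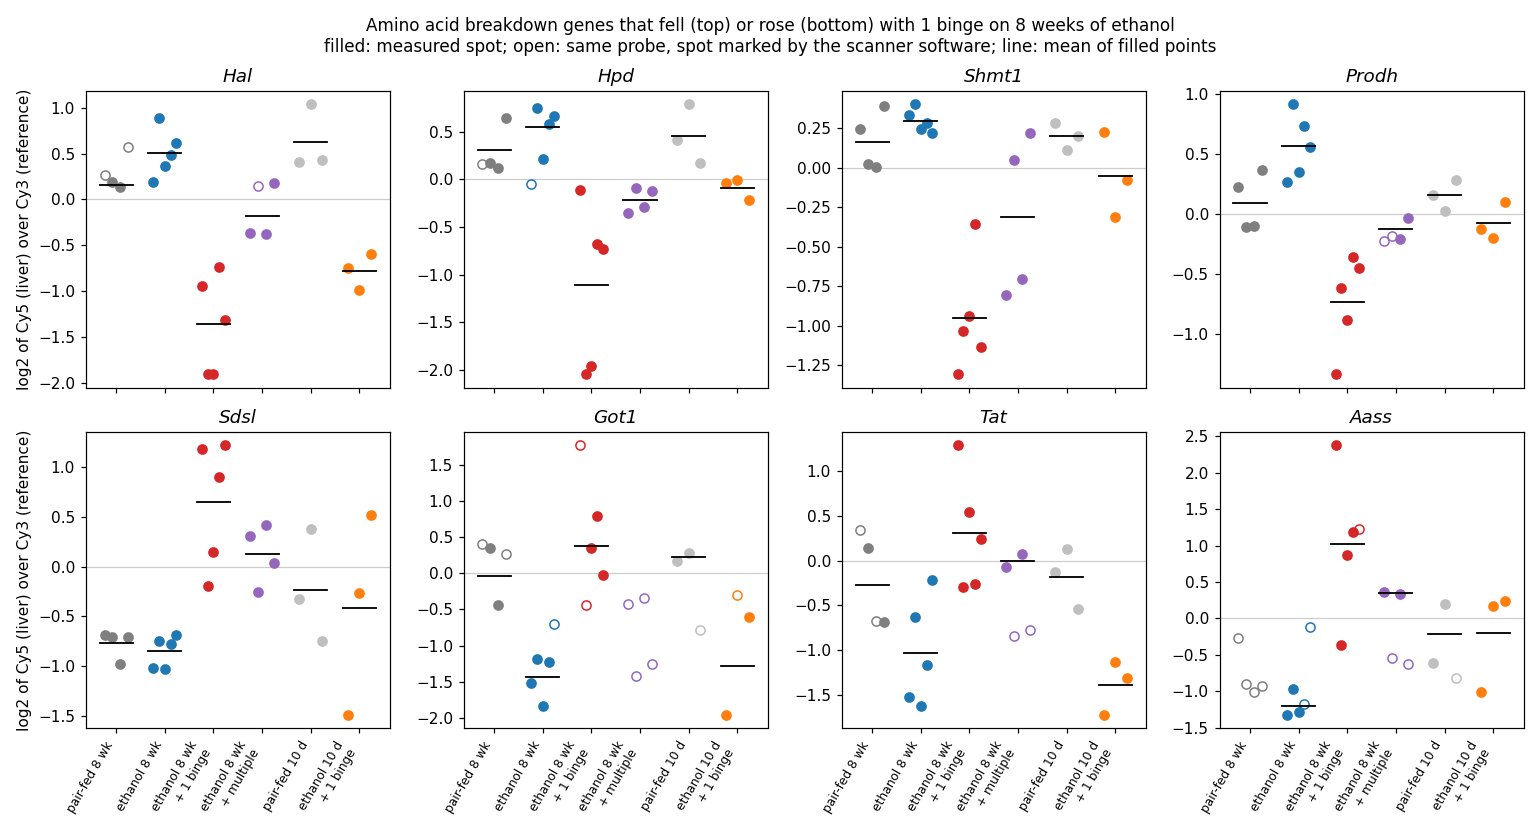
Log2 ratio of Cy5 over Cy3 (vertical axis) of Hal, Hpd, Shmt1 and Prodh (top) and Sdsl, Got1, Tat and Aass (bottom) on each array of the 6 groups (horizontal axis), with filled points for measured spots, open points for spots of the same probe marked by the scanner software and lines for the means of the filled points. In filled points, the single-binge livers lay below the 8-week pair-fed and 8-week ethanol livers in the top panels and above the 8-week ethanol livers in the bottom panels, with overlap in Tat.

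Of the members in tryptophan breakdown, 1 fell against both groups. Kynu, which cleaves kynurenines, lay at 0.11, 0.25, 0.31 and 0.034 in pair-fed, at -0.083, -0.042, -0.42, -0.32 and -0.036 in 8-week ethanol and at -0.71, -0.68, -0.59, -0.066 and -0.77 in single-binge livers. Every single-binge liver was below every pair-fed liver, at -0.74 (SE 0.13, adjusted p = 0.000384). Against 8-week ethanol Kynu differed by -0.38 (SE 0.13, adjusted p = 0.0375), with overlap, and this call was lost without 8-week ethanol replicate 1, 2 or 5 or single-binge replicate 1, 2, 3 or 5 (adjusted p between 0.0679 and 0.103) and with slide as a block (adjusted p = 0.0612). Kmo, the hydroxylase before it, lay at 0.052 and 0.30 in 2 pair-fed, at 0.17 and 0.16 in 2 of the 8-week ethanol and at 0.60, 0.14 and 0.27 in 3 single-binge livers. These ranges overlapped, with a difference of 0.17 (SE 0.15, adjusted p = 0.565) from 8-week ethanol. Tdo2, the dioxygenase that opens the pathway, differed with the marked spots kept by 0.80 (SE 0.18, adjusted p = 0.00226) against 8-week ethanol and by 0.66 (SE 0.19, adjusted p = 0.0157) against pair-fed livers, both higher. A second, dimmer Tdo2 probe, which did not stand for the gene, had 10 of 24 arrays free of marks. In these it gave 1.03 against 8-week ethanol and 0.89 against pair-fed livers.

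Sdsl and Sds, of serine breakdown, rose against 8-week ethanol livers. Sdsl, a serine dehydratase-like enzyme, lay at -0.69, -0.70, -0.98 and -0.71 in pair-fed and at -1.02, -0.75, -1.03, -0.78 and -0.69 in 8-week ethanol livers. The single-binge livers lay at 1.19, -0.20, 0.15, 0.90 and 1.22, all above every liver of both other groups and higher on 5 of 5 slides with both ethanol groups. Sdsl rose by 1.51 (SE 0.29, adjusted p = 0.000719) against 8-week ethanol and by 1.42 (SE 0.31, adjusted p = 0.00212) against pair-fed livers, the only member called higher in both comparisons without marked spots. Sds, the serine dehydratase itself, lay at 0.42 and -0.50 in 2 pair-fed, at -0.95, -0.60, -1.74, -1.08 and -0.61 in 8-week ethanol and at 1.19, -0.28, -0.30, 0.28 and -0.22 in single-binge livers. It was higher in every single-binge liver than in any 8-week ethanol liver, by 1.13 (SE 0.33, adjusted p = 0.0205), and overlapped with the pair-fed livers, at 0.17 (SE 0.43, adjusted p = 0.85). The Sds call was lost without 8-week ethanol replicate 3 or single-binge replicate 1 (adjusted p between 0.0663 and 0.0679).

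Shmt1, the cytosolic enzyme that turns serine into glycine and loads folate with carbon, lay at 0.24, 0.026, 0.0070 and 0.39 in pair-fed and at 0.33, 0.40, 0.24, 0.29 and 0.22 in 8-week ethanol livers. In single-binge livers it lay at -1.30, -1.03, -0.94, -0.35 and -1.13, below every liver of both groups. It fell, with differences of -1.25 (SE 0.17, adjusted p = 2.26e-05) against 8-week ethanol and -1.12 (SE 0.18, adjusted p = 0.000151) against pair-fed livers. Its promoter window is the first of the 3 printed above. Gldc, the decarboxylase of the glycine cleavage system, differed by 0.067 (SE 0.18, adjusted p = 0.872) from 8-week ethanol and did not pass.

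Of the transaminases, Got1, the cytosolic aspartate aminotransferase, lay at 0.35 and -0.44 in 2 pair-fed and at -1.52, -1.18, -1.84 and -1.23 in 4 of the 8-week ethanol livers. The 3 single-binge livers with a value lay at 0.35, 0.80 and -0.025. They were all above the 8-week ethanol livers, by 1.82 (SE 0.30, adjusted p = 0.000774), and overlapped with the pair-fed livers, at 0.42 (SE 0.35, adjusted p = 0.506). Gpt, the alanine aminotransferase, lay at -0.36, 0.44, 0.24 and 0.29 in 8-week ethanol and at -0.20, -0.75, -0.41, -0.34 and -0.24 in single-binge livers. The groups overlapped, and Gpt fell, with a difference of -0.54 (SE 0.15, adjusted p = 0.0165) against 8-week ethanol. The call was lost without 8-week ethanol replicate 2 or 5 (adjusted p between 0.053 and 0.0738). Against pair-fed livers Gpt differed by -0.26 (SE 0.16, adjusted p = 0.324). Agxt, which clears glyoxylate in peroxisomes, differed by -1.04 (SE 0.67, adjusted p = 0.382) from 8-week ethanol and passed with the marked spots kept, at -1.02 (SE 0.34, adjusted p = 0.041).

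The branched-chain ketoacid dehydrogenase commits leucine, isoleucine and valine to breakdown. Its E1 alpha subunit Bckdha lay at 0.23, 0.10, 0.082 and 0.29 in pair-fed, at -0.019, 0.11, -0.090, 0.29 and 0.084 in 8-week ethanol and at -0.62, -0.46, -0.25, -0.27 and -0.22 in single-binge livers. No single-binge liver reached either group. The differences were -0.44 (SE 0.088, adjusted p = 0.00104) and -0.54 (SE 0.094, adjusted p = 0.000269), and a second Bckdha probe gave -0.48 against 8-week ethanol. The E2 subunit Dbt lay at 0.44, 0.20, 0.11 and 0.36 in pair-fed, at 0.086, 0.14, 0.53 and 0.62 in 8-week ethanol and at -0.043, -0.42, -0.18, 0.048 and 0.0010 in single-binge livers, which again lay below both groups. Dbt fell, with differences of -0.47 (SE 0.12, adjusted p = 0.0112) against 8-week ethanol and -0.40 (SE 0.12, adjusted p = 0.0303) against pair-fed livers. The first of these calls was lost without 8-week ethanol replicate 5 (adjusted p = 0.0538) and the second without 8-week pair-fed replicate 1 or 4 or single-binge replicate 2 or 3 (adjusted p between 0.0609 and 0.0973). The E1 beta subunit Bckdhb differed with the marked spots kept by -0.31 (SE 0.086, adjusted p = 0.0127) against 8-week ethanol. Its second, dimmer probe, which was not tested, gave -0.42 in unmarked spots.

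Prodh, which starts proline breakdown, lay at 0.23, -0.11, -0.10 and 0.37 in pair-fed and at 0.27, 0.92, 0.35, 0.74 and 0.56 in 8-week ethanol livers. It lay at -1.34, -0.62, -0.89, -0.36 and -0.45 in single-binge livers, all below both groups and lower on each of 5 slides with both ethanol groups. Prodh fell, with differences of -1.30 (SE 0.16, adjusted p = 7.67e-06) against 8-week ethanol and -0.83 (SE 0.17, adjusted p = 0.00129) against pair-fed livers. Aass, the enzyme that opens lysine breakdown, went the other way. It lay at -1.33, -0.98 and -1.29 in 3 of the 8-week ethanol and at 2.38, -0.36, 0.87 and 1.18 in 4 single-binge livers, which lay above them. Aass rose by 2.22 (SE 0.47, adjusted p = 0.00406) on average, with a single-binge range from -0.36 to 2.38. No pair-fed spot of Aass was free of marks. With them kept, the pair-fed livers lay at -0.27, -0.90, -1.01 and -0.92 and the difference was 1.85 (SE 0.39, adjusted p = 0.0015). The groups then overlapped. Single-binge replicate 2, at -0.36, lay below 8-week ethanol replicate 5, at -0.11, and below pair-fed replicate 1. Its promoter window is the last of the 3 printed above.

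Etnppl, the lyase of phosphoethanolamine, lay at 0.92, 1.41, 0.83 and 1.76 in pair-fed and at 0.28, 0.49, 0.37, 0.29 and 0.51 in 8-week ethanol livers. The single-binge livers lay at -1.87, -1.23, -1.32, -0.34 and -1.87. The 3 groups did not overlap, with the pair-fed livers highest. Etnppl fell, with differences of -1.71 (SE 0.28, adjusted p = 0.000159) against 8-week ethanol and -2.56 (SE 0.30, adjusted p = 3.81e-06) against pair-fed livers. Upp2, a uridine phosphorylase of the liver, lay at -1.18 and 0.95 in the 2 8-week ethanol livers with a value and at -1.81, -3.52, -1.96 and -1.72 in 4 single-binge livers, all lower. Upp2 fell, with a difference of -2.13 (SE 0.59, adjusted p = 0.0292) against 8-week ethanol. Without 8-week ethanol replicate 4 (adjusted p = 0.33), which leaves 1 ethanol liver, the difference was -1.07. With the marked spots kept, Upp2 differed by -2.50 (SE 0.34, adjusted p = 1.33e-05). Without Etnppl and Upp2, 19 of 25 members tested passed against 8-week ethanol and 11 of 21 against pair-fed livers.

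Normalization bore on some of these calls. With median centring of each array in place of loess, the calls of Arg1, Bckdha, Dbt, Fah, Glul, Gpt, Kynu, Upp2 and Uroc1 against 8-week ethanol were lost (adjusted p between 0.0539 and 0.286), and with Cy5 alone those of Bckdha, Dbt, Glul, Gpt and Upp2 (adjusted p between 0.0575 and 0.119). Against pair-fed livers, Dbt, Otc and Uroc1 were lost with median centring (adjusted p between 0.114 and 0.268) and Dbt and Uroc1 with Cy5 alone (adjusted p = 0.153 and 0.116). All of these kept their direction under the setting that ended the call.

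Ethanol for 8 weeks without a binge gave no called member. Of 22 tested, 0 passed in limma, where 0.153% of all genes passed, 0.0637% higher and 0.0892% lower. An unadjusted limma p under 0.05 was found for 5 of the 22. The share of all genes under that unadjusted threshold was not computed, so such counts have no measure beside them, here and below. Keeping the marked spots, 0 of 31 passed, where 0.266% of all genes passed, 0.099% higher and 0.167% lower, and 6 members had an unadjusted p under 0.05. The widest differences were -1.40 (SE 0.33, adjusted p = 0.158) for Got1, -0.96 (SE 0.43, adjusted p = 0.637) for Sds, -0.84 (SE 0.30, adjusted p = 0.442) for Etnppl and -0.76 (SE 0.38, adjusted p = 0.721) for Tat. Got1 did not overlap between the groups, with 4 ethanol livers between -1.84 and -1.18 against 0.35 and -0.44 in 2 pair-fed livers. Etnppl, Sds, Kynu, Glul and Hal did not overlap either, as given above, and the share of all genes without overlap was not computed. Sds and Hal had a value in only 2 pair-fed livers. With the marked spots kept Hal did overlap, at 0.14 to 0.57 in pair-fed and 0.19 to 0.86 in 8-week ethanol livers. Prodh differed by 0.47 (SE 0.17, adjusted p = 0.437) and Kynu by -0.36 (SE 0.13, adjusted p = 0.481). A p that misses the threshold does not show that these levels were equal.

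The 10-day binge livers showed fewer called members. Against 10-day pair-fed livers, 4 of 24 tested passed, all 4 lower, against 7.18% of all genes, 2.89% lower and 4.29% higher. The median difference was -0.20 over the members and -0.0047 over all genes. The 4 were Etnppl, Hal, Bckdha and Got1. When the marked spots were kept, 5 of 31 passed, all 5 lower, against 7.72% of all genes, 3.09% lower and 4.63% higher. These were Etnppl, Hal and Bckdha, with Upp2 at -2.42 (adjusted p = 0.000879) and Gstz1 at -0.30 (adjusted p = 0.0342). Without 10-day binge replicate 2 that count was 3. Without marked spots, 9 passed with only these 2 groups in the fit, and 2 with median centring.

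Etnppl lay at 1.22, 1.84 and 0.87 in the 10-day pair-fed and at -0.95, -1.82 and -1.65 in the 10-day binge livers, without overlap. The difference was -2.78 (SE 0.37, adjusted p = 3.30e-05). Hal lay at 0.41, 1.04 and 0.43 and at -0.75, -0.99 and -0.59, again without overlap, and fell, with a difference of -1.40 (SE 0.26, adjusted p = 0.00197). Bckdha lay at 0.12, 0.24 and 0.25 and at -0.30, -0.51 and -0.17 and fell, with a difference of -0.53 (SE 0.11, adjusted p = 0.00475), with no overlap. This call missed the threshold with median centring (adjusted p = 0.164) and with Cy5 alone (adjusted p = 0.0586). Got1 rests on 2 livers of each group, at 0.16 and 0.29 and at -1.96 and -0.60, with a difference of -1.51 (SE 0.39, adjusted p = 0.0313). The Got1 call was lost with slide as a block, at -0.89 (adjusted p = 0.145). It was also lost without 10-day pair-fed replicate 1 or 2 or 10-day binge replicate 1 or 2 (adjusted p between 0.0518 and 0.22), and the difference was -0.83 without 10-day binge replicate 1 and -0.85 (adjusted p = 0.323) with the marked spots kept.

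Several members stood apart between the 10-day groups without passing. The share of all genes whose ranges did not overlap was not computed, so these ranges have no measure beside them and show no result about the members. Tat lay at -0.13, 0.13 and -0.54 in pair-fed and at -1.72, -1.13 and -1.31 in 10-day binge livers, with a difference of -1.21 (SE 0.37, adjusted p = 0.0555). Sds lay at -0.39, -0.16 and -0.49 and at -2.48, -1.34 and -1.04, a difference of -1.27 (SE 0.43, adjusted p = 0.0749). In both, every 10-day binge liver was below every pair-fed one. Glul lay at -0.071, 0.091 and 0.042 in pair-fed and at 0.69, 0.56 and 0.49 in binge livers, all 3 higher, with 0.56 (SE 0.18, adjusted p = 0.0671). Gls2, at 0.18, 0.32 and 0.039 against -0.48, -0.54 and -0.36, was lower in all 3, with -0.64 (SE 0.26, adjusted p = 0.173). Hpd, at 0.41, 0.79 and 0.18 against -0.036, -0.0037 and -0.22, was also lower in all 3, with -0.54 (SE 0.34, adjusted p = 0.415). Gpt, at 0.30, 0.29 and 0.084 against -0.42, -0.29 and -0.074, and Gstz1, at 0.31, 0.17 and 0.26 against 0.04, -0.031 and -0.17, were lower in all 3 too. None of these passed the threshold without marked spots. The groups of 3 livers each limit what this comparison can call.

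Otc, Ass1 and Asl overlapped between the 10-day groups. Otc lay at 0.45, 0.055 and 0.38 in pair-fed and at 0.91, 0.58 and 0.40 in 10-day binge livers, a difference of 0.33 (SE 0.26, adjusted p = 0.539). Ass1 lay at 0.35, 0.63 and -0.48 and at -0.021, 0.081 and 0.11, a difference of -0.11 (SE 0.34, adjusted p = 0.92). Asl lay at 0.057 and -0.31 and at -0.37, 0.023 and 0.034, a difference of 0.022 (SE 0.35, adjusted p = 0.986). None passed. Arg1 and Nags each had 1 pair-fed liver with a value and could not be tested without marked spots. Arg1 lay at 0.34 on the 1 array measured and at -0.21 and 0.17 in 2 binge livers. Nags lay at 0.088 on the 1 array measured and at -0.16 and -0.041. With the marked spots kept, both overlapped between the groups. Arg1 then lay at 0.0039, 0.34 and -0.25 in pair-fed and at -0.24, 0.21 and 0.17 in binge livers. Nags lay at -0.20, -0.083 and 0.046 and at -0.22, -0.18 and -0.043. Prodh lay at 0.16, 0.028 and 0.28 and at -0.12, -0.20 and 0.10, a difference of -0.23 (SE 0.20, adjusted p = 0.606), and Shmt1 at 0.29, 0.11 and 0.20 and at 0.23, -0.31 and -0.073, a difference of -0.25 (SE 0.22, adjusted p = 0.614). Uroc1 lay at 0.066, 0.18 and 0.16 and at 0.050, -0.14 and 0.25. Fah lay at 0.17, 0.22 and 0.28 and at 0.12, 0.24 and 0.18. Their ranges overlapped, as did those of Sdsl, at -0.33, 0.37 and -0.75 against -1.49, -0.27 and 0.52.

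Whether the effect of ethanol with a binge differed by length of feeding was tested as an interaction, the 8-week effect minus the 10-day effect. Of 20 members tested 1 passed, a share near the 3.39% of all genes, 2.43% with a lower and 0.964% with a higher effect after 8 weeks. This was Kynu, which lay at -0.34, -0.048 and -0.28 in 10-day pair-fed and at -0.055, -0.15 and -0.077 in 10-day binge livers, with overlap, beside the fall described above after 8 weeks. The difference of effects was -0.87 (SE 0.21, adjusted p = 0.0191). It was -0.78 with slide as a block (adjusted p = 0.172), and was lost without 10-day pair-fed replicate 1 or 10-day binge replicate 1 (adjusted p between 0.0507 and 0.0646). The same term was 1.93 (adjusted p = 0.0662) for Got1, -0.80 (adjusted p = 0.0686) for Glul, 1.60 (adjusted p = 0.072) for Sdsl, 1.79 (adjusted p = 0.076) for Tat and -1.01 (adjusted p = 0.109) for Otc, none of them past the threshold. When the marked spots were kept, 4 of 31 passed, against 4.31% of all genes, 3.11% lower and 1.21% higher: Kynu at -0.87 (adjusted p = 0.016), Otc at -1.33 (adjusted p = 0.0259), Tat at 1.75 (adjusted p = 0.0482) and Tdo2 at 1.03 (adjusted p = 0.0487). With slide as a block as well this count was 0. With 1 library left out it ran from 0, without 10-day pair-fed replicate 1, to 6, without single-binge replicate 2 or 4, and each of the 4 calls was lost without at least 1 library. Keeping the marked spots also let another, brighter probe stand for Otc. That probe gave -1.31 without marked spots, while the Otc probe of the main setting gave -1.01 with them kept. For Hal and Etnppl, which fell at both lengths of feeding, the term was -0.12 (SE 0.37, adjusted p = 0.928) and 0.23 (SE 0.47, adjusted p = 0.878).

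The multiple-binge arrays need their reference channel beside them. They form a scan of their own, so scan and group cannot be told apart, and their Cy3 signals correlated with those of the other 8-week groups at a median r of 0.927, where arrays of those groups correlated with each other at 0.984. The Cy3 difference from 8-week pair-fed arrays was 2.24 for Otc, 1.90 for Asl, 1.61 for Gldc, 1.60 for Fah and 1.08 for Kynu, although the same reference RNA is named on every array. Each called difference of this group is therefore given for the ratio and for Cy5 alone. In Etnppl, Shmt1, Glul and Sds, picked after their values were seen, multiple-binge replicates 1 and 3 lay to one side of replicates 2 and 4.

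**Figure D4:**
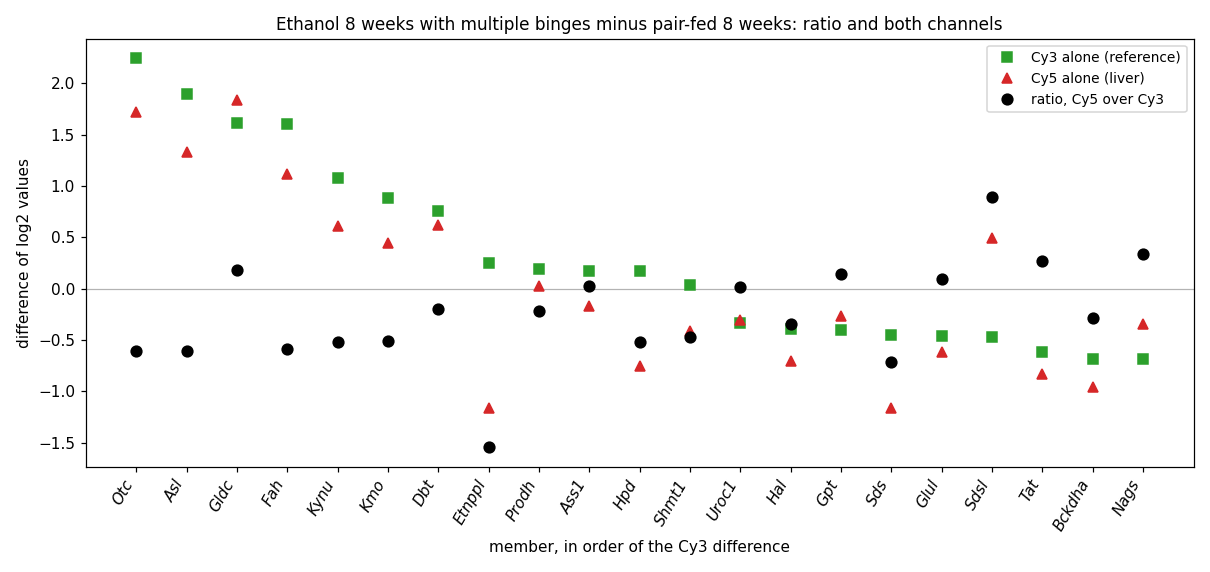
Difference between multiple-binge and 8-week pair-fed livers (vertical axis, log2) of the 21 members tested, for the ratio, for Cy5 alone and for Cy3 alone, ordered by the Cy3 difference (horizontal axis). At the left, from Otc to Dbt, Cy3 differed by 0.76 or more and the ratio and Cy5 took opposite signs in all but Gldc, while Etnppl lay below 0 in both the ratio and Cy5.

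Against 8-week pair-fed livers, 4 of 21 members tested passed in the ratio, all lower, against 20.7% of all genes, 12.7% lower and 7.99% higher. The share of members that passed was near that of all genes, so these calls describe single genes and not the members as a set. In Cy5 alone 11 of the 21 passed, 6 higher and 5 lower. Of all 31 with the marked spots kept, 9 passed, all lower, against 21.4% of all genes, 13% lower and 8.38% higher, and between 5 and 7 passed when any 1 library of either group was left out. Etnppl lay at -0.88, 0.26, -0.97 and 0.32 in multiple-binge livers, below every pair-fed liver. It fell, with a difference of -1.54 (SE 0.32, adjusted p = 0.00178) in the ratio and differed by -1.16 in Cy5 alone. Bckdha lay at -0.18, -0.20, -0.079 and 0.0046, a difference of -0.29 (SE 0.10, adjusted p = 0.0403) in the ratio and of -0.95 in Cy5 alone. The Bckdha call was lost without 8-week pair-fed replicate 1, 2 or 4 or multiple-binge replicate 1, 2 or 3 (adjusted p between 0.0562 and 0.105), and its second probe gave 0.010. Fah, at -0.33, -0.31 and -0.21, and Kynu, at -0.56, -0.16, -0.61 and -0.056, were lower in the ratio, at -0.59 (adjusted p = 0.00281) and -0.52 (adjusted p = 0.0109), and higher in Cy5 alone, at 1.11 and 0.61, so their direction flips with the channel.

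Against 8-week ethanol livers, 6 of 24 members tested passed, 5 lower and 1 higher, against 25.2% of all genes, 15% lower and 10.2% higher. The share of members that passed was near that of all genes, so these calls describe single genes and not the members as a set. In Cy5 alone 13 passed, 8 higher and 5 lower. Without multiple-binge replicate 1 the count in the ratio was 3, and without replicate 3 it was 2. Of all 31 with the marked spots kept, 9 passed, 8 lower and 1 higher, against 26.1% of all genes, 15.4% lower and 10.7% higher, and between 4 and 10 passed with 1 library left out. Hal lay at -0.36, -0.37 and 0.18 in the multiple-binge livers with a value, below the 8-week ethanol livers. It fell, with a difference of -0.70 (SE 0.23, adjusted p = 0.0339), with -0.94 in Cy5 alone, and the call was lost without 8-week ethanol replicate 2 or 5 or multiple-binge replicate 1 or 3 (adjusted p between 0.0567 and 0.128). Shmt1, at -0.80, 0.051, -0.70 and 0.22, gave -0.60 (SE 0.18, adjusted p = 0.0182) and -0.37 in Cy5 alone, and was lost without multiple-binge replicate 1 or 3 (adjusted p between 0.0873 and 0.0908). Prodh, at -0.21 and -0.036 in 2 livers, gave -0.69 (SE 0.21, adjusted p = 0.0181) and -0.48 in Cy5 alone. It was lost without multiple-binge replicate 3 or 4 (adjusted p between 0.0521 and 0.132).

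Sdsl, at 0.31, -0.26, 0.42 and 0.032, was the member that rose against 8-week ethanol livers, by 0.98 (SE 0.31, adjusted p = 0.0223), with 0.63 in Cy5 alone, and the call was lost without multiple-binge replicate 1 or 3 (adjusted p between 0.0573 and 0.0708). Fah and Otc passed as lower in the ratio, at -0.54 (adjusted p = 0.00285) and -0.78 (adjusted p = 0.0326), and were higher in Cy5 alone, at 1.19 and 1.63. Otc lay at -0.084 and -0.14 in the 2 multiple-binge livers with a value, and its call was lost without 8-week ethanol replicate 2, 4 or 5 or multiple-binge replicate 2 or 4 (adjusted p between 0.0502 and 0.138). The other urea cycle enzymes were not called in any multiple-binge comparison in the ratio: Ass1 lay at 0.31, 0.25, 0.43 and 0.28, Asl at -0.31 and -0.50 in 2 livers, Arg1 at 0.26, -0.21 and 0.28 in 3 and Nags at 0.21, 0.0055 and 0.22 in 3.

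Against the single-binge livers, 9 of 24 members tested passed, 8 higher and 1 lower, against 29.6% of all genes, 12% higher and 17.6% lower. In Cy5 alone 17 passed, 13 higher and 4 lower. Without multiple-binge replicate 4 the count in the ratio was 3. Of all 31 with the marked spots kept, 15 passed, 11 higher and 4 lower, against 30.2% of all genes, 12.6% higher and 17.6% lower. Of the 8 higher in the ratio without marked spots, 7 were higher in Cy5 alone too. Hal was higher by 1.18 (SE 0.23, adjusted p = 0.00101) in the ratio and 0.87 in Cy5, Etnppl by 1.01 (SE 0.30, adjusted p = 0.0139) and 1.53, and Shmt1 by 0.64 (SE 0.18, adjusted p = 0.0108) and 0.86. Hpd, at -0.35, -0.089, -0.29 and -0.12 in multiple-binge livers, was higher by 0.89 (SE 0.28, adjusted p = 0.0191) in the ratio and 0.83 in Cy5. Prodh was higher by 0.61 (adjusted p = 0.0308) and 0.82, Upp2 by 2.11 (adjusted p = 0.0194) and 0.85, and Uroc1 by 0.43 (adjusted p = 0.00358) and 0.095. In Cy5 alone Upp2 and Uroc1 missed the threshold (adjusted p = 0.257 and 0.633). The eighth, Bckdha, was higher in the ratio, at 0.25 (adjusted p = 0.0453), and lower in Cy5 alone, at -0.43. Kmo was lower in the ratio, at -0.67 (adjusted p = 0.00855), and higher in Cy5 alone, at 0.20.

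Each of these calls except Hal and Uroc1 was lost when certain single libraries were left out. Etnppl was lost without multiple-binge replicate 2 or 4 (adjusted p between 0.0636 and 0.0762), Shmt1 without multiple-binge replicate 2 or 4 (adjusted p between 0.0523 and 0.0719) and Hpd without single-binge replicate 2 or 3 or multiple-binge replicate 4 (adjusted p between 0.0539 and 0.06). Prodh was lost without single-binge replicate 1 or 3 or multiple-binge replicate 3 or 4 (adjusted p between 0.0596 and 0.194) and Upp2 without multiple-binge replicate 1 or 4 (adjusted p between 0.0729 and 0.0882). Bckdha was lost without single-binge replicate 1 or 2 or multiple-binge replicate 1, 2, 3 or 4 (adjusted p between 0.051 and 0.15) and Kmo without multiple-binge replicate 1 (adjusted p = 0.0587).

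Further enzymes of amino acid breakdown, a list of 46 of which 41 were measured, fell in larger number than they rose. In single-binge against 8-week ethanol livers 21 of 37 tested were lower and 1 higher, with a median of -0.42, where 8.39% of all genes were lower and 8.01% higher. Those with the lowest adjusted p were Afmid, the formamidase of the kynurenine path, at -1.60 (SE 0.14, adjusted p = 1.74e-07), Aldh4a1, the second enzyme of proline breakdown, at -0.85 (SE 0.084, adjusted p = 4.13e-07), Tst, a sulfur transferase, at -0.70 (SE 0.093, adjusted p = 1.39e-05), and Sardh, which oxidizes sarcosine, at -1.19 (SE 0.16, adjusted p = 2.74e-05). Against pair-fed livers 16 of 32 were lower and 1 higher (8.7% and 7.53% of all genes), with a median of -0.45, led by Aldh4a1 at -0.93 (SE 0.089, adjusted p = 3.62e-07). In 10-day binge livers 4 of 38 were lower and 0 higher, where 2.89% of all genes were lower and 4.29% higher: Afmid at -1.54 (SE 0.19, adjusted p = 1.81e-05), Ahcy, which clears S-adenosylhomocysteine, at -1.12 (SE 0.17, adjusted p = 0.00376), Dhtkd1, of lysine breakdown, at -0.76 (SE 0.17, adjusted p = 0.00619) and Csad, of taurine synthesis, at -2.08 (SE 0.62, adjusted p = 0.049). In 8-week ethanol without a binge 0 of 32 passed, and 4 had an unadjusted p under 0.05. Aldh4a1 follows Prodh in the proline pathway, and both fell in the single-binge livers. With slide as a block the 10-day call of Csad was lost (adjusted p = 0.444).

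Amino acid carriers went both ways. Of 17 tested, 3 were higher and 3 lower in single-binge than in 8-week ethanol livers, with a median of -0.028, where 16.4% of all genes passed. Slc25a22, a glutamate carrier of mitochondria, rose by 2.31 (SE 0.28, adjusted p = 7.68e-06), and Slc3a2, the heavy chain of several exchangers, by 1.03 (SE 0.18, adjusted p = 0.000238). Slc38a4, which takes up neutral amino acids, fell, with a difference of -1.12 (SE 0.21, adjusted p = 0.00246), as did Aqp9, a glycerol and urea channel, at -0.82 (SE 0.17, adjusted p = 0.00216). In 10-day binge livers 1 of 16 passed, a share near the 7.18% of all genes: Slc38a4, at -1.73 (SE 0.23, adjusted p = 0.000481), which missed the threshold with slide as a block (adjusted p = 0.116).

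Genes known to regulate these enzymes fell in part. Of 19 tested, 7 were lower and 1 higher in single-binge than in 8-week ethanol livers, with a median of -0.16, where 8.39% of all genes were lower. Sirt3, a mitochondrial deacetylase, differed by -0.93 (SE 0.10, adjusted p = 1.91e-06), Ppara, a receptor for fatty acids, by -1.06 (SE 0.18, adjusted p = 0.00019), Gcgr, the glucagon receptor, by -0.65 (SE 0.088, adjusted p = 5.83e-05), and Nr3c1, the glucocorticoid receptor, by -0.52 (SE 0.090, adjusted p = 0.00024). In 10-day binge livers 6 of 16 were lower and 0 higher, where 2.89% of all genes were lower, among them Klf15, a factor that raises amino acid breakdown genes, at -1.58 (SE 0.21, adjusted p = 3.30e-05), Sirt3 at -0.65 (SE 0.13, adjusted p = 0.00297), Crtc2, a coactivator of CREB, at -0.61 (SE 0.12, adjusted p = 0.00217), and Ppara at -0.89 (SE 0.23, adjusted p = 0.0183), the last lost with slide as a block (adjusted p = 0.0816). Klf15 was also lower in single-binge than in pair-fed livers, at -1.31 (SE 0.17, adjusted p = 1.28e-05). In 8-week ethanol without a binge 0 of 19 passed, and 4 had an unadjusted p under 0.05.

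Genes of amino acid synthesis and supply known as targets of ATF4 rose in part. Of 11 tested, 5 were higher and 0 lower in single-binge than in 8-week ethanol livers, with a median of 0.50, where 8.01% of all genes were higher. The 4 with the lowest adjusted p were Psph, the last enzyme of serine synthesis, at 1.83 (SE 0.18, adjusted p = 3.99e-07), Phgdh, the first, at 0.50 (SE 0.085, adjusted p = 0.000275), Chac1, which breaks down glutathione, at 1.43 (SE 0.37, adjusted p = 0.00943), and Mthfd2, a mitochondrial folate enzyme, at 0.78 (SE 0.25, adjusted p = 0.0312). With slide as a block Mthfd2 missed the threshold (adjusted p = 0.0754). Against pair-fed livers 2 of 11 passed and in 10-day binge livers 1 of 11, all higher, shares near the 16.2% and 7.18% of all genes that passed there.

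Genes known from both ends of the liver lobule were among those that fell. Of genes known from cells around the central vein, other than Glul, 7 of 13 tested were lower and 0 higher in single-binge than in 8-week ethanol livers, with a median of -0.52, where 8.39% of all genes were lower. Cyp2e1, the ethanol-inducible cytochrome, differed by -0.79 (SE 0.16, adjusted p = 0.00114), Cyp7a1, the rate-limiting enzyme of bile acid synthesis, by -1.82 (SE 0.43, adjusted p = 0.00469), and Lect2, a protein the liver secretes, by -0.52 (SE 0.13, adjusted p = 0.01). Of genes known from cells near the portal vein, 6 of 11 were lower and 2 higher, with a median of -0.50, but 6 of that list are members themselves (Gls2, Hal, Sds, Etnppl, Uroc1 and Arg1). Aldh1b1, which is no member, differed by -1.17 (SE 0.25, adjusted p = 0.00392). In 10-day binge livers 3 of 14 central genes were higher and 0 lower, where 4.29% of all genes were higher and 2.89% lower. Of 10 portal genes 2 were lower, the members Hal and Etnppl counted again.

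Markers of other liver cells moved in both directions beside these results. Between single-binge and 8-week ethanol livers, 16.4% of all genes passed, 8.39% lower and 8.01% higher. There 0 of 7 cholangiocyte and 0 of 10 T, B or NK cell markers passed in limma, with 0 and 1 at an unadjusted p under 0.05. Of 10 macrophage markers 1 was lower, of 8 neutrophil markers 2 were higher and 1 lower, of 10 endothelial markers 2 were higher and 3 lower, and of 10 stellate cell markers 3 were higher and 2 lower. The mean log2 ratio of the stellate cell markers lay between -0.13 and 0.0037 in 8-week ethanol and between -0.12 and 0.44 in single-binge livers. In 10-day binge livers 4 of 10 endothelial and 3 of 8 hepatocyte markers were higher than in pair-fed livers, with 0 and 1 lower. Over all genes 4.29% were higher and 2.89% lower in that comparison. Against pair-fed livers, 5 of 10 stellate cell markers passed in single-binge livers, 3 higher and 2 lower, where 16.2% of all genes passed. In multiple-binge against pair-fed livers 20.7% of all genes passed, 7.99% higher and 12.7% lower. There the hepatocyte markers had a median difference of 0.41, with 2 of 8 higher and 0 lower. Of 8 neutrophil markers 4 passed and of 10 T, B or NK cell markers 4, with 2 of each higher and 2 lower. The part of these markers in the members' changes was not tested.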

How the data were processed

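Liver RNA of 24 samples carried Cy5 and the shared reference RNA carried Cy3, per the labels. The reference is named both as assorted mouse RNA and, in a tissue field, as liver, so its makeup is uncertain. Spot intensities, and log10 ratios of processed intensities, were deposited as written by Agilent Feature Extraction 11.5.1.1, per the file headers. The deposited log2 values followed that ratio with a slope of 1.00, and their making is not given in the sources used here.

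Median intensities were corrected with normexp (offset 50) and loess within each array in limma 3.58.1 (R 4.3.3, statmod 1.5.0, version 1.17.8 of data.table), without spots marked as non-uniform or population outliers. The filter for detection in Cy5 (3 or more arrays well above background) passed 36620 of 41174 non-control probes. RefSeq's GRCm38.p6 names covered 24432 probes by accession, of which 22995 passed, for 16161 genes. The brightest probe with 2 or more usable arrays in each group stood for a gene, or its brightest probe of all where none had them, which left 16036 genes and was a choice among several probes for 5369. With marked spots kept, this choice fell on another probe for Otc and Shmt1. One fit of 6 group means over 24 arrays gave 8 comparisons, each testing genes with 2 or more arrays in each of its groups, with Benjamini-Hochberg adjustment over all of them and calls under 0.05. All adjusted p-values are limma's. The same steps were tested on simulated data.

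No spot was saturated (0), 0 pairs of arrays were identical, and 11 slides in 3 scans held the arrays. The members and lists were chosen with earlier results of these data known. Values by array are given for the urea cycle enzymes and for the 16 other members with the lowest adjusted p among those called, the other 4 called members (Gpt, Upp2, Sds and Glul) were added after their values were seen, and up to 4 called genes with the lowest adjusted p were named of a list, except 1 gene that is not reported here. Same-numbered replicates of compared groups did not deviate together throughout, so numbers were not treated as pairs. Alternatives covered background correction, normalization, the channel, filters, marked spots, probes, slide, replicate number, array weights and left-out arrays. Marked spots kept together with a slide block, with Cy5 alone or with left-out arrays were added after seeing the data.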

Additional observations from a re-analysis of the deposited data

Results flagged for a closer look

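Of 72 groups of 4 or 5 arrays tested, 5 had 1 array apart from the others of its group, about what chance gives at 1 in 20. In 8-week ethanol livers, Nags stood at 0.23 in replicate 4 against -0.14 to -0.079 in the others, and Uroc1 at 0.56 in replicate 2 against 0.18 to 0.26. In single-binge livers, Kynu stood at -0.066 in replicate 4 against -0.77 to -0.59, and Upp2 at -3.52 in replicate 3 against -1.96 to -1.72. In 8-week pair-fed livers, Sdsl stood at -0.98 in replicate 3 against -0.71 to -0.69. The effect of ethanol with a binge on Kynu was called different between 8 weeks and 10 days of feeding, with an interaction of -0.87 in limma. This call was lost with slide as a block, with median centring and without certain single libraries.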

How the results depend on the processing

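Of 2979 values recomputed under other settings, 2748 kept their side of the threshold, 85 lost a call, 115 gained one and 31 reversed. Of 1710 with 1 array left out, 1602 kept it, 77 lost a call, 31 gained one and 0 reversed. Sizes were not compared in these counts, and a value uncalled in both settings counted as kept whatever its sign. Counts of called members are given as setting against main. In 10-day binge against pair-fed livers (4), median centring gave 2 and a fit of these groups alone 9. In single-binge against 8-week ethanol livers (21), median centring gave 12. In single-binge against pair-fed livers (12), marked spots kept gave 21. In multiple-binge against pair-fed livers (4), Cy5 alone gave 11, array weights 8, groups alone 8, marked spots kept 9, and marked spots kept with Cy5 alone 20. In multiple-binge against 8-week ethanol livers (6), the counts were Cy5 alone 13, array weights 10, groups alone 10, median centring 10, and marked spots kept with Cy5 alone 22. In multiple-binge against single-binge livers (9), they were Cy5 alone 17, groups alone 4, marked spots kept 15, median centring 5, and marked spots kept with Cy5 alone 20. For the interaction (1), array weights gave 3, groups alone 2, marked spots kept 4, mean of probes 2, slide as a random block 2, and median centring and slide as a block, with or without marked spots, 0. The cause of these shifts was not tested. With 1 array left out, the counts ran from 0 to 4 for the interaction, from 3 to 4 for the 10-day binge, from 17 to 21 and 10 to 13 for the single binge against 8-week ethanol and pair-fed livers, and for the multiple binges from 3 to 5 (pair-fed), 2 to 6 (8-week ethanol) and 3 to 11 (single binge).

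All 31 reversals came with Cy5 alone in multiple-binge comparisons, where the Cy3 difference given in the report sets ratio and Cy5 apart by construction. With marked spots left out and then kept, Cy5 alone gave, against pair-fed livers, Asl 1.33 and 1.33, Dbt 0.62 and 0.62, Fah 1.11 and 1.14, Glul -0.61 and -0.61, Kynu 0.61 and 0.61, and, once each, Otc 1.72, Kmo 0.54 and Tat -0.92. Against 8-week ethanol livers it gave Asl 1.49 and 1.56, Fah 1.19 and 1.22, Kynu 0.97 and 0.97, and, once each, Dbt 0.54, Otc 1.63, Kmo 0.49 and Nags -0.89. Against single-binge livers it gave Arg1 1.21 and 1.17, Asl 1.60 and 1.68, Bckdha -0.43 and -0.43, and Kmo 0.20 and 0.49.

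Correlations of same-numbered replicates ran from -0.24 to 0.36, and in no comparison were all over 0.1. With the replicate number as a block, the counts were 4 for the 10-day binge (3 lower, without Got1, and 1 higher, Glul), 0 for 8-week ethanol, 21 and 13 for the single binge against 8-week ethanol and pair-fed livers, 5, 8 and 10 for the multiple binges, and 2 for the interaction, so only the last moved by over 1.5 times. Groups of 3 to 5 arrays, and marked spots of bright members, limit every value, and values of the multiple-binge group cannot be told apart from their scan.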
